A study of Homo sapiens with 11 samples.

Results

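The HOX cluster genes are the human homeobox genes that lie side by side in 4 chromosomal clusters named HOXA, HOXB, HOXC and HOXD. Members were taken from the raw read count table by their Ensembl IDs: a row was a member where its ID belongs to a protein-coding gene whose symbol is HOX, a cluster letter and a number, with antisense genes left out. This gave 39 members among 61464 rows. The cells were of the established line HCT116, which grew from a human colorectal carcinoma, is labelled as epithelial and carries a ras mutation. They were kept for 48 h with the Ganoderma triterpenoid extract GTEA1 (n = 4 libraries), with the extract GTEA7 (n = 4), or with DMSO, the solvent control (n = 3). Ganoderma is a genus of bracket fungi whose triterpenoids are lanostane-type compounds. Per the series title, the question was the mechanism by which these extracts limit stem-like and migratory behaviour in colon cancer. All libraries carry the same line, the same genotype and the same batch label, and no dose is given in the labels. No label states that replicates were separate cultures, so the p-values measure only the spread between these libraries.

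HOX proteins are transcription factors that bind DNA through a homeodomain and give cells their position along the head-to-tail axis. Genes at one end of each cluster (low numbers) are used in anterior parts of the embryo and those at the other end (high numbers) in posterior parts, and genes with the same number in different clusters are paralogs of each other. They bind many sites together with PBX and MEIS proteins, and Polycomb and MLL (KMT2) complexes keep clusters off or on through histone marks. Adult colon epithelium keeps a HOX pattern of its own, and carcinoma lines often carry an altered one.

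Library totals were 13742326 to 16433111 counts in GTEA1, 14955685 to 19304211 in GTEA7 and 13866350 to 17431515 in DMSO. Levels are given as CPM, that is, counts scaled to library size with TMM factors. Changes are given as log2 fold changes from edgeR's quasi-likelihood test. Their standard error (SE) was derived as the absolute log2 fold change divided by the square root of that test's F statistic. A gene passed where its Benjamini-Hochberg adjusted p over all 17963 tested genes was under 0.05. Where a call is described as lost or gained under another setting, the number in brackets is its adjusted p there. The 5 epithelial markers fitted the labelled cell type, with summed levels of 2703 to 2831 CPM in GTEA1, 2215 to 2304 in GTEA7 and 2217 to 2367 in DMSO. Of 6 markers of leukocytes, T cells, endothelium and fibroblasts, PTPRC, CD3E, PECAM1, COL1A2 and DCN were at or near 0, with 0 to 67 counts over all 11 libraries. In GTEA1 KRT19 (1.18), EPCAM (0.62) and CDH1 (0.16) passed as higher and KRT8 (-0.26) and KRT18 (-0.27) as lower on the log2 scale against DMSO, and in GTEA7 KRT19 (0.21) and EPCAM (0.25) as higher and KRT8 (-0.16) and KRT18 (-0.12) as lower. CDH1 in GTEA1 was lost when libraries were scaled by size only (0.93), and KRT18 in GTEA7 without DMSO replicate 2 (0.14) or 3 (0.077) or GTEA7 replicate 1 (0.072). COL1A1, a collagen gene (-0.34 in GTEA1 and -0.39 in GTEA7), brought the other list to 38.5 to 43.4 CPM in GTEA1, 34.6 to 44.6 in GTEA7 and 51 to 53.4 in DMSO, and its part in the HOX results was not tested.

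Enough counts for a test were found for 28 of the 39 members: 10 of 11 in HOXA, 9 of 10 in HOXB, 6 of 9 in HOXC and 3 of 9 in HOXD. HOXB held 54.5% of all HOX counts, HOXA 34.7%, HOXC 7.66% and HOXD 3.1%. The 11 members left out were HOXA4, HOXB1, HOXC5, HOXC11, HOXC12, HOXD1, HOXD9, HOXD10, HOXD11, HOXD12 and HOXD13. Their totals ran from 1 count (HOXB1 and HOXD1) to 67 counts (HOXC11) over all 11 libraries. Together they had 38 counts in GTEA1, 99 in GTEA7 and 98 in DMSO, which is 0.66, 1.43 and 1.95 CPM pooled over the libraries of each group. HOXA4 had 3 counts in GTEA1, 6 in GTEA7 and 12 in DMSO. HOXD10 had 6, 20 and 18 counts in the same order. HOXD13, a gene of digit and hindgut patterning, had 3, 9 and 10. HOXD11 and HOXD12 had 0 counts in every GTEA1 library, which allows up to 3 counts over the group, beside 5 and 6 counts in DMSO. No test was made on these members.

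Levels of different genes were compared per kilobase of exon (CPM per kb, exon lengths from GENCODE v29). In GTEA1 HOXB9 came first at 17.8 ± 0.948 CPM per kb, then HOXA9 at 14.4 ± 0.384, HOXB7 at 6.77 ± 0.671 and HOXB8 at 3.23 ± 0.464 (SD). HOXD8 came next in GTEA1 at 3 ± 0.379 CPM per kb and was not among the first 8 members in the other groups. The GTEA7 libraries had HOXB7 (16.8 ± 0.966) and HOXA9 (16.1 ± 0.63) first, HOXB9 (10.5 ± 0.402) next and HOXB8 at 9.86 ± 0.247 CPM per kb. In DMSO the highest were HOXA9 at 17.2 ± 0.756 and HOXB7 at 17.2 ± 0.391 CPM per kb (SD), which did not differ beyond their spread. HOXB9 followed at 11.7 ± 0.337, HOXB8 at 9.13 ± 0.13 and HOXB6 at 8.19 ± 0.752 CPM per kb. HOXB5 came next at 7.27 ± 0.689, and its SD range overlapped that of HOXB6.

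HOX genes resemble each other in the part that codes for the third helix of the homeodomain, the helix that reads DNA. Over 39 bases of that part, the other members differ from HOXB6 at 2 (HOXA6) to 14 (HOXC10) bases. That stretch is shown for members whose levels moved in different directions, since reads are told apart only by such differences. Each line gives 39 bases of the coding strand from a GENCODE v29 transcript, and capitals mark bases that differ from HOXB6.
HOXB6: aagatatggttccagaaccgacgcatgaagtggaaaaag
HOXB7: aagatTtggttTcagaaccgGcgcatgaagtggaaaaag
HOXB9: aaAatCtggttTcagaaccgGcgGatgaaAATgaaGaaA
HOXD8: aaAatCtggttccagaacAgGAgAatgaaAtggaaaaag
HOXB7 differed from HOXB6 at 3 of the 39 bases, HOXD8 at 7 and HOXB9 at 10. Outside annotated exon overlaps, 374 pairs of tested members were searched for their longest identical stretch. The median was 15 bases, and 3 pairs shared 50 or more: HOXB3 with HOXD3 (62 bases), HOXB6 with HOXB7 (51) and HOXB4 with HOXB5 (50). Reads inside those stretches could have been assigned to either gene or dropped, depending on counting options, which no label or note states.

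In GTEA1 against DMSO most HOX genes with enough counts were lower: 18 passed as lower, 3 passed as higher and 7 did not pass. The background was high, since 71.8% of all tested genes passed in this comparison, 36.2% as lower and 35.6% as higher. Against that, 75% of the tested HOX genes passed, 64.3% as lower and 10.7% as higher. Their median log2 fold change was -0.71, beside -0.01 over all tested genes. Among all tested genes 12.4% passed and fell at least 2-fold, and among the HOX genes 9 of 28 did (32.1%). The GTEA1 and DMSO libraries did not overlap for 21 HOX genes (75%), beside 68.7% of all tested genes. In such bulk RNA a smaller number of cells using a gene and less of its RNA per cell cannot be told apart.

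**Figure D1:**
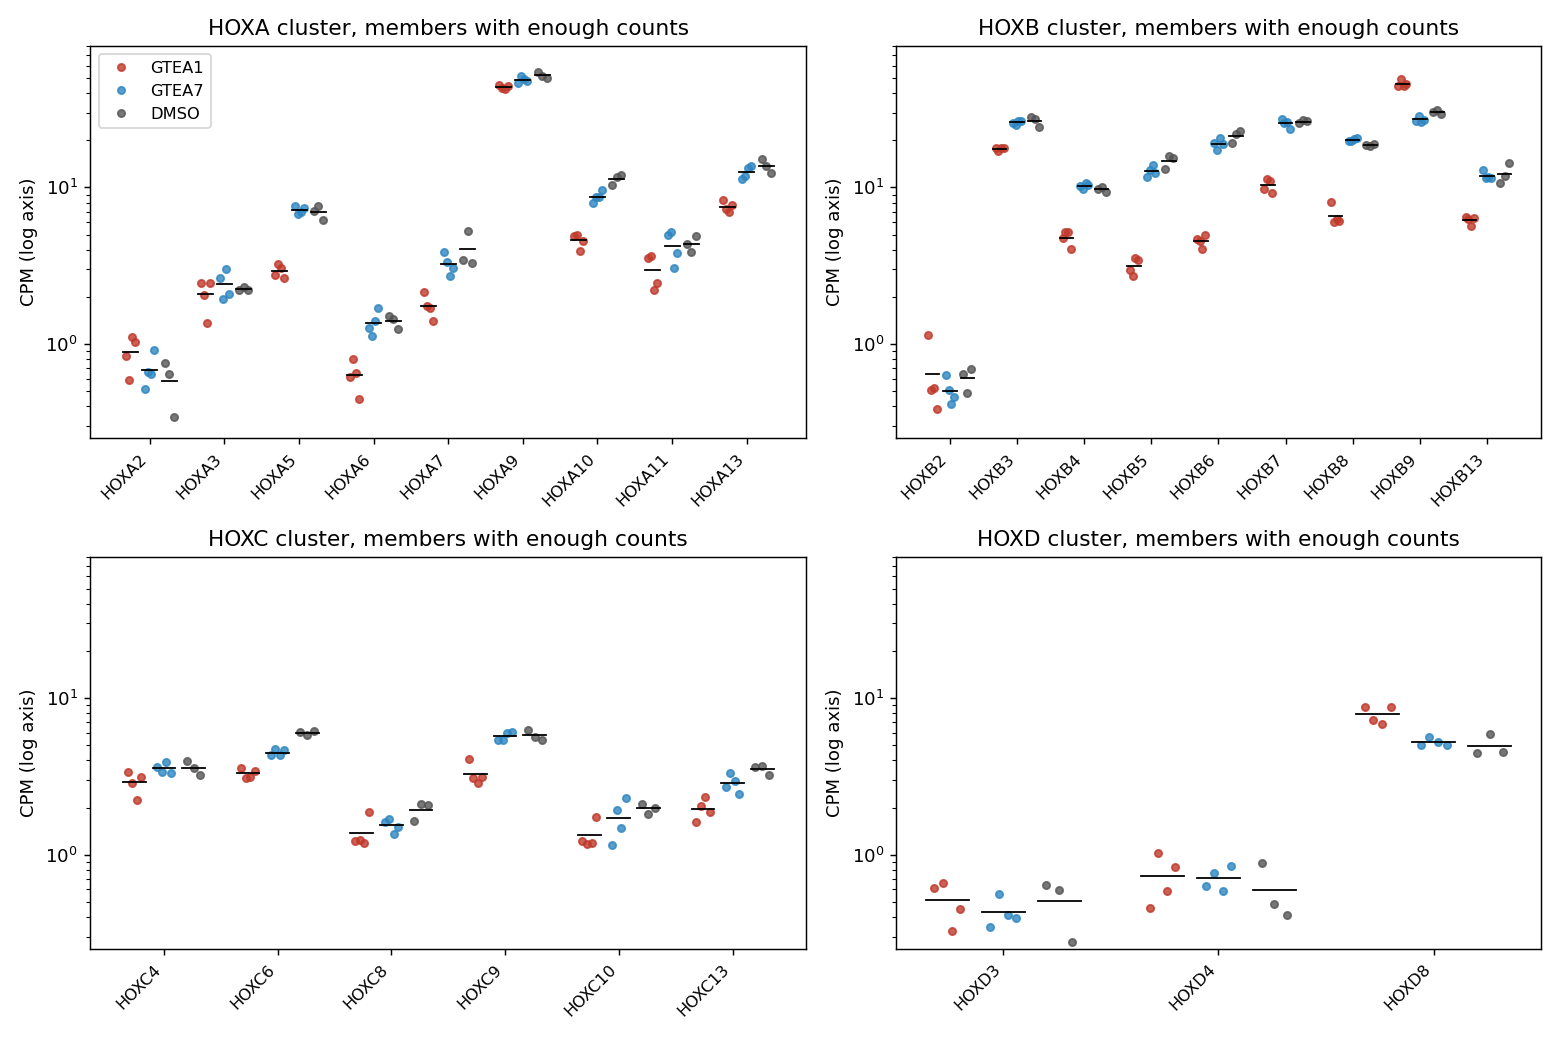
CPM (log axis) of HOX genes with enough counts in each library, by cluster, with GTEA1 in red, GTEA7 in blue and DMSO in grey; each point is 1 library and each bar a group mean. HOXB5 and HOXB6 lie at 2.71 to 4.94 CPM in GTEA1 and above 11 CPM in every other library, while HOXB9 is highest in GTEA1.

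The HOXB cluster showed the deepest falls and, next to them, a rise. HOXB6 and HOXB5, neighbours in the middle of the cluster, were more than 4-fold lower in GTEA1. HOXB6 (ENSG00000108511) had 4.67, 4.55, 4.05 and 4.94 CPM in GTEA1 libraries, 19.1, 17.4, 20.8 and 18.9 CPM in GTEA7 libraries and 19.2, 21.8 and 23 CPM in DMSO libraries. All 4 GTEA1 libraries lay far below every other library, and GTEA7 overlapped DMSO. Its log2 fold change in GTEA1 was -2.22 ± 0.098 (SE), 4.67-fold lower (edgeR adjusted p = 4.8e-26). HOXB5 (ENSG00000120075), known for roles in gut neuron and lung development, had 2.99, 2.71, 3.53 and 3.46 CPM in GTEA1 libraries, 11.7, 12.9, 13.9 and 12.3 CPM in GTEA7 libraries and 13.2, 15.9 and 15.3 CPM in DMSO libraries. Its log2 fold change was -2.21 ± 0.12, 4.64-fold lower (edgeR adjusted p = 4.47e-23), and again no GTEA1 library came near another group. HOXB6 shares 16.6% of its exon length with a HOXB3 transcript on the same strand.

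HOXB8, HOXB7 and HOXB4 fell to a lesser degree. HOXB8, a gene that keeps myeloid progenitors growing when forced on, had 8.04, 6.01, 6.27 and 6.15 CPM in GTEA1 libraries, 19.9, 19.7, 20.5 and 20.8 CPM in GTEA7 libraries and 18.7, 18.5 and 19 CPM in DMSO libraries. HOXB7 had 9.72, 11.4, 11 and 9.23 CPM in GTEA1 libraries, 27.3, 25.8, 26 and 23.7 CPM in GTEA7 libraries and 25.6, 26.8 and 26.5 CPM in DMSO libraries. HOXB4, known for expanding blood stem cells when forced on, had 4.75, 5.21, 5.16 and 4.04 CPM in GTEA1 libraries, 10.2, 9.71, 10.7 and 10.4 CPM in GTEA7 libraries and 9.79, 10.1 and 9.37 CPM in DMSO libraries. For these 3 genes every GTEA1 library was below every DMSO library, with log2 fold changes of -1.51 ± 0.09, -1.35 ± 0.076 and -1.03 ± 0.11 in that order (edgeR adjusted p = 9.31e-21, 1.32e-21 and 1.19e-11). The GTEA1 library of replicate 1 stood above the other GTEA1 libraries for HOXB8 but still below all others.

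HOXB13 and HOXB3, on either side of these genes, also fell. HOXB13, a posterior gene best known from prostate and distal colon, had 6.43, 6.31, 5.68 and 6.35 CPM in GTEA1 libraries, 12.9, 11.5, 11.7 and 11.5 CPM in GTEA7 libraries and 10.6, 11.9 and 14.3 CPM in DMSO libraries. HOXB3 had 17.8, 17.2, 17.8 and 17.9 CPM in GTEA1 libraries, 25.9, 25.1, 26.7 and 26.6 CPM in GTEA7 libraries and 28, 27.4 and 24.2 CPM in DMSO libraries. Neither gene overlapped between GTEA1 and DMSO, with log2 fold changes of -0.98 ± 0.11 (edgeR adjusted p = 1.23e-11) and -0.59 ± 0.066 (edgeR adjusted p = 3.89e-11). HOXB2, a gene of hindbrain patterning, was near the lower limit of the assay with 1.15, 0.513, 0.523 and 0.385 CPM in GTEA1 libraries, 0.632, 0.511, 0.412 and 0.459 CPM in GTEA7 libraries and 0.645, 0.485 and 0.689 CPM in DMSO libraries. Its groups overlapped, and 0.06 ± 0.37 did not pass (edgeR adjusted p = 0.885).

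HOXB9 went the other way. This gene (ENSG00000170689) lies directly beside HOXB8 and had 44.3, 49.5, 44.4 and 45.8 CPM in GTEA1 libraries, 26.7, 28.7, 26.3 and 26.9 CPM in GTEA7 libraries and 30.4, 31 and 29.3 CPM in DMSO libraries. All 4 GTEA1 libraries were above every other library, and its log2 fold change was 0.60 ± 0.055, 1.52-fold higher (edgeR adjusted p = 6.42e-14). The ratio of HOXB9 CPM to HOXB8 CPM was 7.06 ± 1.1 in GTEA1 (range 5.5 to 8.23), 1.34 ± 0.079 in GTEA7 (1.28 to 1.46) and 1.61 ± 0.069 in DMSO (1.54 to 1.68; SD). HOXB9 made up 46 ± 1.6% of the summed HOXB CPM in GTEA1, 17.7 ± 0.93% in GTEA7 and 18.8 ± 0.68% in DMSO. HOXB6 made up 4.55 ± 0.39%, 12.4 ± 0.7% and 13.3 ± 0.98% in the same order, and HOXB5 3.18 ± 0.46%, 8.26 ± 0.57% and 9.23 ± 0.66%. The share of HOXB3 did not differ beyond its spread, at 17.7 ± 0.74% in GTEA1, 17 ± 0.41% in GTEA7 and 16.5 ± 1.5% in DMSO. Shares are of CPM and so weight longer genes more. The mix of genes in the sum differed between groups, so this weighting also bears on how the share of 1 gene compares between groups. Per kilobase, HOXB9 held 17.8 of a HOXB sum of 36.8 CPM per kb in GTEA1 and 11.7 of 63.5 in DMSO. HOXB3 held 2.37 and 3.56 CPM per kb of the same sums.

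**Figure D2:**
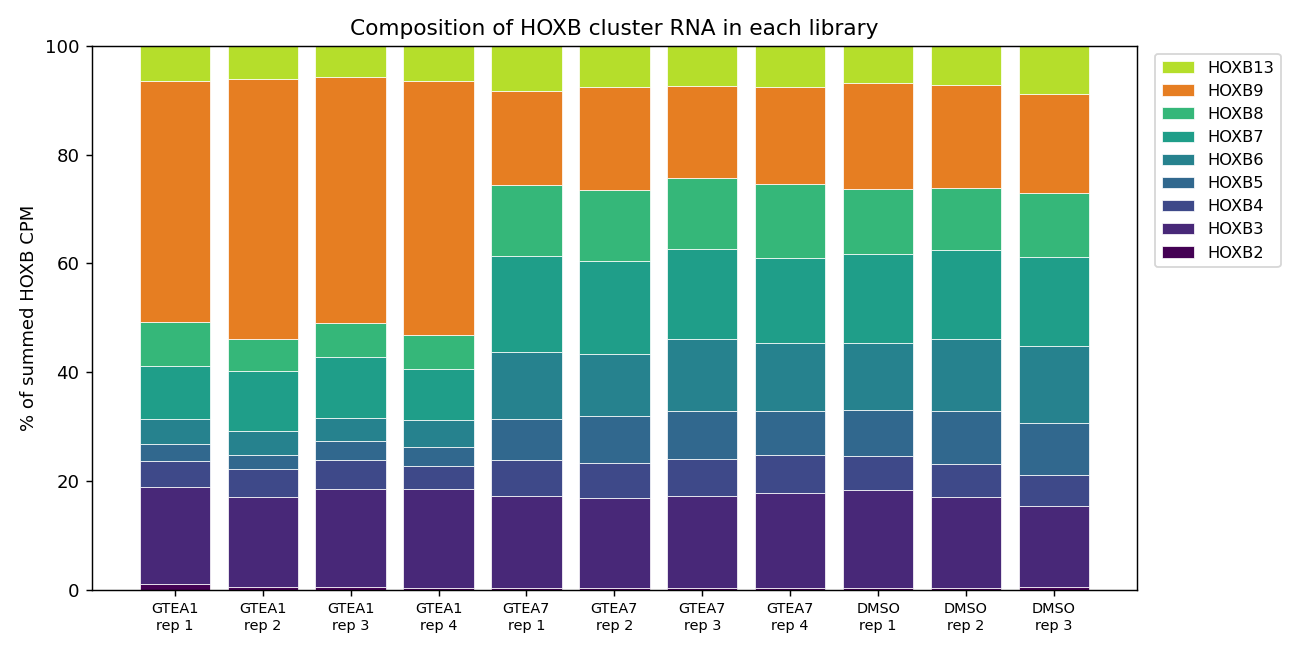
Percent of summed HOXB CPM taken by each HOXB gene in each of the 11 libraries, stacked from HOXB2 at the bottom to HOXB13 at the top. HOXB9 takes 44.3 to 47.9% in the GTEA1 libraries and 16.8 to 19.5% in all others.

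In the HOXA cluster 7 genes fell, 1 rose and 2 did not pass in GTEA1 against DMSO. The largest fall was that of HOXA10, a gene of uterus and limb patterning, with 4.9, 4.99, 3.92 and 4.55 CPM in GTEA1 libraries, 7.99, 8.63, 8.71 and 9.64 CPM in GTEA7 libraries and 10.4, 11.6 and 12 CPM in DMSO libraries. HOXA10 was lowest in GTEA1 and intermediate in GTEA7, with no overlap between any groups, and its log2 fold change in GTEA1 was -1.30 ± 0.11 (edgeR adjusted p = 7.22e-15). HOXA5, needed for lung development, had 2.76, 3.23, 3.07 and 2.63 CPM in GTEA1 libraries, 7.59, 6.79, 7 and 7.34 CPM in GTEA7 libraries and 7.09, 7.6 and 6.2 CPM in DMSO libraries. HOXA6 had 0.613, 0.807, 0.653 and 0.449 CPM in GTEA1 libraries, 1.26, 1.12, 1.41 and 1.7 CPM in GTEA7 libraries and 1.52, 1.45 and 1.24 CPM in DMSO libraries. HOXA7 had 2.14, 1.76, 1.7 and 1.41 CPM in GTEA1 libraries, 3.85, 3.32, 2.71 and 3.08 CPM in GTEA7 libraries and 3.46, 5.28 and 3.31 CPM in DMSO libraries. In all of these the GTEA1 libraries lay below the DMSO libraries, at -1.26 ± 0.13, -1.17 ± 0.28 and -1.22 ± 0.19 for HOXA5, HOXA6 and HOXA7 (edgeR adjusted p = 5.93e-12, 0.000293 and 1.46e-07). By GENCODE v29 62.5% of the exon length of HOXA7 and 39.3% of that of HOXA6 is overlapped by the antisense gene HOXA-AS3, and the strand setting is unknown here, so these rows may hold antisense reads.

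The other posterior HOXA genes had smaller changes. HOXA13, needed for hand, foot and hindgut formation, had 8.27, 7.33, 6.93 and 7.69 CPM in GTEA1 libraries, 11.4, 11.9, 13.3 and 13.8 CPM in GTEA7 libraries and 15.1, 13.8 and 12.4 CPM in DMSO libraries. HOXA11, a limb and uterus gene, had 3.52, 3.67, 2.22 and 2.44 CPM in GTEA1 libraries, 4.94, 5.21, 3.06 and 3.8 CPM in GTEA7 libraries and 4.34, 3.88 and 4.89 CPM in DMSO libraries. HOXA9, known as a driver of acute leukaemias, was the most abundant HOXA gene with 44.8, 43.3, 42.3 and 44.6 CPM in GTEA1 libraries, 46.7, 51.2, 48.9 and 47.8 CPM in GTEA7 libraries and 54.6, 51.4 and 50.2 CPM in DMSO libraries. Each was below DMSO in every GTEA1 library: -0.87 ± 0.098 for HOXA13 (edgeR adjusted p = 3.91e-11), -0.57 ± 0.18 for HOXA11 (edgeR adjusted p = 0.00468) and -0.25 ± 0.05 for HOXA9 (edgeR adjusted p = 1.22e-05). HOXA11 shares 31.1% of its exon length with the antisense gene HOXA11-AS, which had 41 counts in all. A further protein-coding gene annotated on the same strand (ENSG00000257184) overlaps 9.93% of the exon length of HOXA10 and 13.1% of that of HOXA9. The antisense gene HOXA10-AS overlaps 16.4% and 13.9% of them, so these rows may also hold antisense reads.

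HOXA2 and HOXA3 did not pass in GTEA1. HOXA2, which patterns the second pharyngeal arch, had 0.842, 0.587, 1.11 and 1.03 CPM in GTEA1 libraries, 0.517, 0.664, 0.647 and 0.918 CPM in GTEA7 libraries and 0.762, 0.647 and 0.344 CPM in DMSO libraries. HOXA3, needed for thymus and parathyroid, had 2.45, 2.05, 1.37 and 2.44 CPM in GTEA1 libraries, 2.64, 1.94, 3 and 2.1 CPM in GTEA7 libraries and 2.23, 2.32 and 2.2 CPM in DMSO libraries. For both the groups overlapped, with log2 fold changes of 0.59 ± 0.34 (edgeR adjusted p = 0.112) and -0.12 ± 0.2 (edgeR adjusted p = 0.597).

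Of the 6 HOXC genes with enough counts 4 fell in GTEA1. HOXC6 had 3.6, 3.08, 3.14 and 3.4 CPM in GTEA1 libraries, 4.31, 4.7, 4.3 and 4.65 CPM in GTEA7 libraries and 6.04, 5.82 and 6.13 CPM in DMSO libraries. HOXC9 had 4.06, 3.08, 2.88 and 3.14 CPM in GTEA1 libraries, 5.4, 5.41, 5.94 and 6.03 CPM in GTEA7 libraries and 6.27, 5.66 and 5.37 CPM in DMSO libraries. HOXC13, a gene of hair and nail formation, had 1.61, 2.05, 2.35 and 1.86 CPM in GTEA1 libraries, 2.7, 3.32, 2.94 and 2.43 CPM in GTEA7 libraries and 3.63, 3.66 and 3.24 CPM in DMSO libraries. In these genes every GTEA1 library was below every DMSO library, at -0.86 ± 0.13, -0.82 ± 0.14 and -0.83 ± 0.18 in that order (edgeR adjusted p = 1.15e-07, 7.5e-07 and 4.25e-05).

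The other HOXC genes lay near the threshold. HOXC10 had 1.23, 1.17, 1.18 and 1.73 CPM in GTEA1 libraries, 1.15, 1.94, 1.47 and 2.29 CPM in GTEA7 libraries and 2.11, 1.83 and 2 CPM in DMSO libraries, and its -0.56 ± 0.23 passed (edgeR adjusted p = 0.0284). That call was lost without the low-count filter (0.052), with the DESeq2 Wald test (0.075), and when 1 of 5 libraries was left out: DMSO replicate 1 (0.084), DMSO replicate 3 (0.055), or GTEA1 replicate 1 (0.053), 2 (0.066) or 3 (0.072). HOXC8 had 1.23, 1.25, 1.18 and 1.86 CPM in GTEA1 libraries, 1.61, 1.69, 1.35 and 1.51 CPM in GTEA7 libraries and 1.64, 2.1 and 2.07 CPM in DMSO libraries. Its -0.48 ± 0.22 did not pass (edgeR adjusted p = 0.0503), but it passed without DMSO replicate 1 (0.031) or without GTEA1 replicate 4 (0.013). HOXC4 had 3.37, 2.86, 2.22 and 3.14 CPM in GTEA1 libraries, 3.62, 3.37, 3.88 and 3.34 CPM in GTEA7 libraries and 3.99, 3.56 and 3.24 CPM in DMSO libraries, and its -0.32 ± 0.16 did not pass (edgeR adjusted p = 0.0693) but did so without GTEA1 replicate 1 (0.037). HOXC4 shares 17.8% of its exon length with HOXC6.

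HOXD8 was the only tested HOXD gene above 1 CPM in every library, and it was higher in GTEA1. This gene (ENSG00000175879) had 8.73, 7.26, 6.8 and 8.72 CPM in GTEA1 libraries, 5, 5.67, 5.24 and 4.98 CPM in GTEA7 libraries and 4.46, 5.87 and 4.55 CPM in DMSO libraries. All 4 GTEA1 libraries were above all DMSO and GTEA7 libraries, and its log2 fold change was 0.65 ± 0.12, 1.57-fold higher (edgeR adjusted p = 7.64e-06). HOXD3 had 0.613, 0.66, 0.327 and 0.449 CPM in GTEA1 libraries, 0.345, 0.562, 0.412 and 0.393 CPM in GTEA7 libraries and 0.645, 0.593 and 0.276 CPM in DMSO libraries. HOXD4 had 0.459, 1.03, 0.588 and 0.833 CPM in GTEA1 libraries, 0.632, 0.766, 0.589 and 0.852 CPM in GTEA7 libraries and 0.879, 0.485 and 0.413 CPM in DMSO libraries. In both the groups overlapped and the change did not pass, at -0.04 ± 0.4 (edgeR adjusted p = 0.935) and 0.28 ± 0.36 (edgeR adjusted p = 0.482). Both also share most of their exon length (62.2% and 80.5%) with AC009336.2, so their rows are uncertain.

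**Figure D3:**
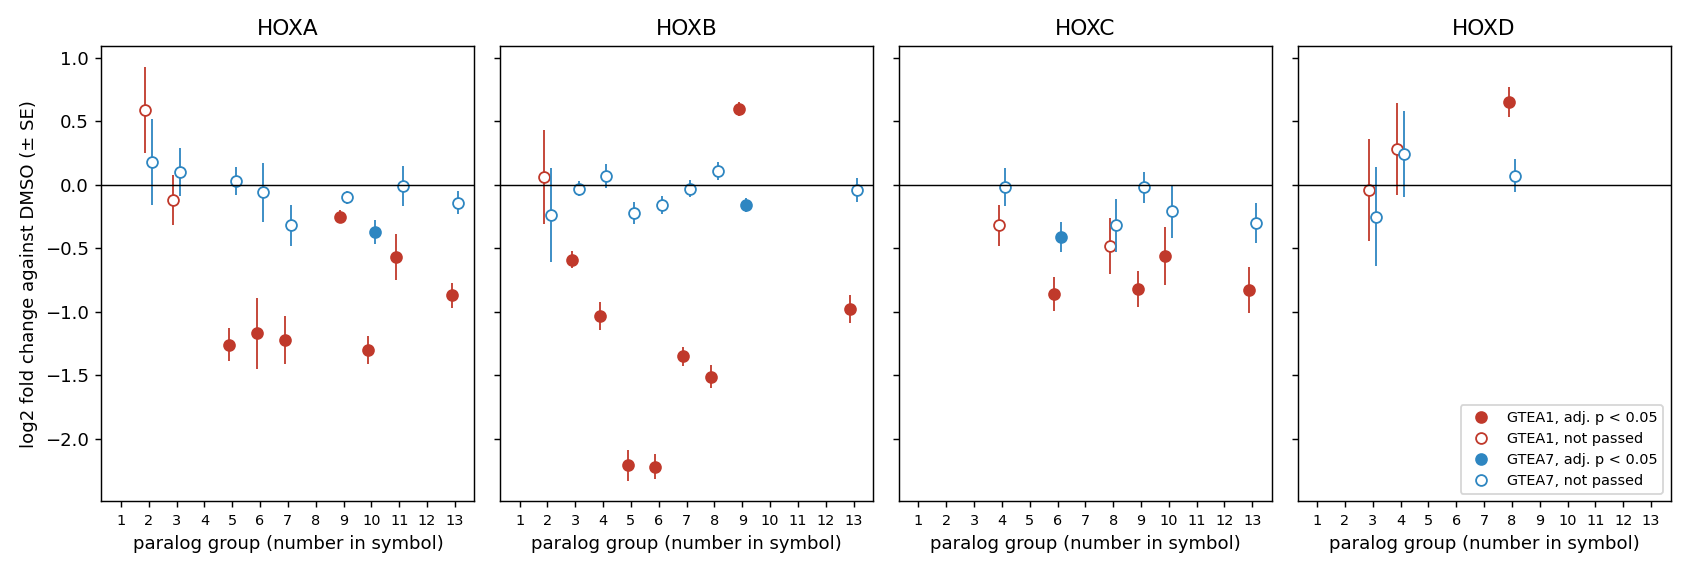
Log2 fold change against DMSO (points, with SE bars) of HOX genes with enough counts by their number within the cluster, for GTEA1 (red) and GTEA7 (blue); filled points passed at an adjusted p under 0.05. GTEA1 values are lowest at HOXB5 (-2.21) and HOXB6 (-2.22) and passed above 0 at HOXB9 and HOXD8, while the GTEA7 values plotted stay between -0.41 and 0.24.

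Summed over all members, HOX RNA was 196 ± 5.73 CPM in GTEA1, 272 ± 2.7 in GTEA7 and 292 ± 4.26 in DMSO (SD), so that GTEA1 held 67.4% and GTEA7 93.4% of the DMSO level. By cluster the sums were 72.6 ± 2.85, 91.4 ± 1.88 and 100 ± 3.08 CPM for HOXA in the order GTEA1, GTEA7 and DMSO. For HOXB they were 100 ± 2.33, 154 ± 2.73 and 161 ± 3.88 CPM, and for HOXC 14.6 ± 1.19, 20.5 ± 0.748 and 23.4 ± 1.04 CPM. The HOXD sum ran the other way in GTEA1, with 9.34 ± 1.02, 7.08 ± 0.436 and 7.13 ± 0.642 CPM. Most of it was HOXD8, at 7.88, 5.22 and 4.96 CPM in the same order. HOXD4 (0.727, 0.71 and 0.593 CPM) and HOXD3 (0.512, 0.428 and 0.504 CPM) did not pass. The HOXD members left out of the test all had lower mean CPM in GTEA1 than in DMSO, on few counts. The higher sum thus came from HOXD8 and not from the cluster as a whole. In every one of the 4 GTEA1 libraries the HOXA, HOXB and HOXC sums were below, and the HOXD sum above, those of all DMSO libraries. No p is given for these sums.

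Start regions are shown for the HOXD gene that rose and for HOXA10 and HOXA7, which fell. They are RefSeq sequences (GRCh38.p14) of 250 bases before to 50 bases after the listed start, 5′ to 3′ on the gene's strand, and capitals mark CG. HOXD8 lies at chr2:176129455-176129754 on the plus strand, HOXA10 at chr7:27179812-27180111 on the minus strand (the more upstream of its listed starts), and HOXA7 at chr7:27156626-27156925 on the minus strand.
HOXD8: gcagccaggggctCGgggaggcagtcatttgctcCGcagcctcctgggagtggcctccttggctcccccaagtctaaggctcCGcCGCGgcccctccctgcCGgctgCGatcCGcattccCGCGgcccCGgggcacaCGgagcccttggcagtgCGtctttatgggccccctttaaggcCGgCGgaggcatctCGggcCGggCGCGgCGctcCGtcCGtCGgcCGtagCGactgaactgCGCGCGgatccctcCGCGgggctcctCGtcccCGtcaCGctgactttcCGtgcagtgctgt
HOXA10: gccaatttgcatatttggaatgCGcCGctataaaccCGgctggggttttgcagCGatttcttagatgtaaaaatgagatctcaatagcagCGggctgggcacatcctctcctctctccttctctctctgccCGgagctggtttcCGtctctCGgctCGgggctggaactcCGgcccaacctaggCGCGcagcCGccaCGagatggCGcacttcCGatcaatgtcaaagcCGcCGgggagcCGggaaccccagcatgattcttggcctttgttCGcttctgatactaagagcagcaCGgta
HOXA7: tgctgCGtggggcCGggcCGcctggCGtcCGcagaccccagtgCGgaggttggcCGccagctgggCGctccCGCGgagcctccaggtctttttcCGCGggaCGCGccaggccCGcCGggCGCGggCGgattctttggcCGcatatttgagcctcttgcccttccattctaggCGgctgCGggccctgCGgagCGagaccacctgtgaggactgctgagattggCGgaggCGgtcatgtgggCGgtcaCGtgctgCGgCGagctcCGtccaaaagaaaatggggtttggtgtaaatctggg
HOXD8 held 34 CG, HOXA10 21 and HOXA7 31, beside a median of 14 over 35116 start regions of all genes. The table had 19 start regions for 12 of the 28 tested HOX genes, with a median of 21 CG and a range of 0 to 44. It had none for a HOXB gene. Several of the 19 were alternative starts of HOXA3, so the counts are of regions and not of genes. The letters CNATAAA, a short form of the site of the CDX factors, were searched on both strands. They were found in 6 of the 19 and in 9.73% of all start regions. Among the 6 were those of HOXD8 and HOXA10 shown here and more than 1 region of HOXA3. The further start region listed for HOXA10 did not hold these letters. TGATTNAT, a short form of the joint HOX and PBX site, was found in 1 of the 19 (HOXA2) and in 2.82% of all.

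GTEA7 against DMSO changed few HOX genes, each by less than 2-fold. Of the 28 tested, 4 passed as lower, none passed as higher and 24 did not pass, while 22.5% of all tested genes passed (10.4% lower and 12% higher). The share among HOX genes was 14.3%. Their median log2 fold change was -0.08, beside -0.01 over all tested genes. At an unadjusted edgeR p under 0.05 there were 7 of the 28 HOX genes, all 7 lower, beside 6015 of all 17963 tested genes. DESeq2's Wald test (an adjusted p for 23 of the 28) and limma-voom also called 0 as higher. Libraries of the 2 groups did not overlap for 5 HOX genes (17.9%), beside 30.5% of all tested genes. Both extracts were set against the same DMSO libraries, so their changes are not independent of each other.

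The genes that were lower in GTEA7 included HOXA10, HOXC6 and HOXB9. HOXC6 was -0.41 ± 0.12 (edgeR adjusted p = 0.00852), with 4.3 to 4.7 CPM in GTEA7 against 5.82 to 6.13 CPM in DMSO. HOXA10 was -0.37 ± 0.096 (edgeR adjusted p = 0.00307), with 7.99 to 9.64 CPM in GTEA7 against 10.4 to 12 CPM in DMSO. For both HOXC6 and HOXA10 the groups did not overlap.

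HOXB9 was lower in GTEA7 by a small amount, -0.16 ± 0.058 (edgeR adjusted p = 0.0453), with 26.3 to 28.7 CPM in GTEA7 against 29.3 to 31 CPM in DMSO. This call was lost with DESeq2 size factors (0.062), without the low-count filter (0.15), with the DESeq2 Wald test (0.12) and with replicates blocked by number (0.051). It was also lost without DMSO replicate 1 (0.11), 2 (0.17) or 3 (0.058), and without GTEA7 replicate 1 (0.089), 3 (0.13) or 4 (0.085). HOXB8 lay just above DMSO in every GTEA7 library, at 19.7 to 20.8 CPM against 18.5 to 19 CPM in DMSO, but its 0.11 ± 0.072 did not pass (edgeR adjusted p = 0.298). HOXB5 (-0.22 ± 0.087, edgeR adjusted p = 0.0554) and HOXB6 (-0.16 ± 0.074, edgeR adjusted p = 0.113), the genes that fell most in GTEA1, did not pass in GTEA7. HOXB5 passed without DMSO replicate 1 (0.02) or GTEA7 replicate 3 (0.039) and in a fit of the compared groups only (0.035), and HOXB6 without DMSO replicate 1 (0.038).

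The extracts were then compared with each other directly. In GTEA7 against GTEA1, 17 HOX genes passed as higher, 3 as lower and 8 did not pass, while 72.7% of all tested genes passed (36.2% higher and 36.4% lower). Among HOX genes 71.4% passed, and their median log2 fold change was 0.54, beside 0 over all tested genes. Groups did not overlap for 19 HOX genes (67.9%), beside 65.3% of all tested genes. HOXB6 and HOXB5 differed most, at 2.06 ± 0.094 (edgeR adjusted p = 2.07e-25) and 1.99 ± 0.11 (edgeR adjusted p = 9.11e-22). HOXB8 (1.62 ± 0.083), HOXB7 (1.32 ± 0.072), HOXA5 (1.30 ± 0.12), HOXA6 (1.11 ± 0.27) and HOXB4 (1.1 ± 0.1) were also more than 2-fold higher in GTEA7. Among the genes lower in GTEA7 were HOXB9 at -0.76 ± 0.051 (edgeR adjusted p = 1.42e-18) and HOXD8 at -0.59 ± 0.11 (edgeR adjusted p = 9.63e-06). HOXA2, HOXA3, HOXB2, HOXC4, HOXC8, HOXC10, HOXD3 and HOXD4 did not pass, with log2 fold changes from -0.40 (HOXA2) to 0.35 (HOXC10). HOXC4 passed without GTEA1 replicate 1 (0.033) and with scaling by library size only (0.013), and HOXC10 without GTEA7 replicate 1 (0.044).

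Noncoding genes inside the clusters passed in GTEA1 about as often as all genes did, mostly as lower. Of the 24 whose rows were found, 12 had enough counts, and in GTEA1 8 passed as lower, 1 as higher and 3 did not pass, with a median of -0.95. That is 75%, beside 71.8% of all tested genes. The largest fall was in HOXB-AS3, which runs antisense through HOXB5 and HOXB6: 2.6, 2.93, 2.88 and 3.53 CPM in GTEA1 libraries, 12.4, 12.4, 13.5 and 13.6 CPM in GTEA7 libraries and 15.8, 16.7 and 15.5 CPM in DMSO libraries. The GTEA1 libraries were far below the rest, at -2.41 ± 0.11 (edgeR adjusted p = 1.9e-25). Its annotated exons overlap 16.3% of the exon length of HOXB6 and 3.58% of that of HOXB5, and without the strand setting shared reads cannot be told apart. Also lower were HAGLR of HOXD (-1.97), HOTAIR (-1.52), a HOXC transcript studied for its part in Polycomb targeting, HOXA-AS3 (-1.47), HOXB-AS4 (-1.44), HOXA-AS2 (-0.95), HOXC-AS2 (-0.95) and HOXB-AS2 (-0.55). HOTAIRM1, a noncoding gene of the HOXA cluster, was higher with 1.45, 2.27, 2.61 and 1.8 CPM in GTEA1 libraries, against 0.879, 1.02 and 0.689 CPM in DMSO libraries, at 1.22 ± 0.25 (edgeR adjusted p = 3.3e-05). HOXB-AS1 (0.59), HOXC-AS1 (0.11) and HOXA10-AS (-0.34) did not pass in GTEA1. The calls of HOXB-AS2 and HOXC-AS2 were lost with the DESeq2 Wald test (0.064 and 0.068). HOXB-AS2 was also lost without DMSO replicate 2 (0.21), and HOXC-AS2 without DMSO replicate 3 (0.067) or GTEA1 replicate 1 (0.05). Mature miRNAs are not read by such libraries, and of the host rows MIR196A1 had 69 counts, MIR10B 10 and the other 4 none.

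In GTEA7 3 of the 12 noncoding genes passed as lower and 9 did not pass, with a median of -0.32; that is 25%, beside 22.5% of all tested genes. They were HOXB-AS3 (-0.31 ± 0.082, edgeR adjusted p = 0.004), HOXB-AS4 (-0.56 ± 0.17, edgeR adjusted p = 0.014) and HOXA10-AS (-0.69 ± 0.23, edgeR adjusted p = 0.023). HOTAIRM1 was -0.36 and did not pass (edgeR adjusted p = 0.44). HOXB-AS4 was lost with the DESeq2 Wald test (0.054) and without DMSO replicate 1 (0.072), DMSO replicate 3 (0.1) or GTEA7 replicate 3 (0.067). HOXA10-AS was lost without the low-count filter (0.072) and without DMSO replicate 3 (0.11), GTEA7 replicate 2 (0.051) or GTEA7 replicate 4 (0.051).

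Genes that flank the clusters moved in both directions in GTEA1: of 10 tested, 4 passed as higher and 5 as lower, with a median of -0.14. The share that passed in GTEA1 was 90% here and 75% to 85.7% in each list from the TALE cofactors to the retinoid genes described further on, beside the 71.8% of all tested genes. Beyond HOXB13 lie TTLL6, a tubulin-modifying enzyme, and CALCOCO2, an autophagy receptor. TTLL6 was lower (-1.34 ± 0.15) and CALCOCO2 higher (0.87 ± 0.038), with 2.21 ± 0.249 and 215 ± 4.3 CPM in GTEA1 against 5.64 ± 0.654 and 118 ± 1.9 CPM in DMSO (edgeR adjusted p = 7.5e-11 and 2.3e-26). SKAP1, an adaptor of T cell signalling at the other end of HOXB, was higher (0.63 ± 0.098). Near HOXD, LNPK, which shapes the endoplasmic reticulum, was lower (-0.78 ± 0.043) and MTX2, a mitochondrial import protein, higher (0.50 ± 0.055). Near HOXA, HIBADH, an enzyme of valine breakdown, was higher (0.38 ± 0.053), and SKAP2 did not pass (-0.06 ± 0.049, edgeR adjusted p = 0.24). Near HOXC, CBX5, a heterochromatin protein (-0.56 ± 0.035), CALCOCO1 (-0.29 ± 0.05) and SMUG1, a DNA repair enzyme (-0.22 ± 0.072), were lower. In GTEA7 1 of the 10 passed as higher (SKAP2, 0.22 ± 0.047) and 3 as lower: CALCOCO1 (-0.33 ± 0.049), CBX5 (-0.16 ± 0.035) and TTLL6 (-0.44 ± 0.13), the last of which lost its call without DMSO replicate 1 (0.12) and with the DESeq2 Wald test (0.053). Over all tested genes 22.5% passed in GTEA7. Without GTEA7 replicate 4 the flanking genes higher in GTEA7 numbered 3, with HIBADH (0.039) and MTX2 (0.042) added. Without DMSO replicate 2 they numbered 2, with MTX2 (0.042) added, and LNPK was then also lower (0.049).

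**Figure D4:**
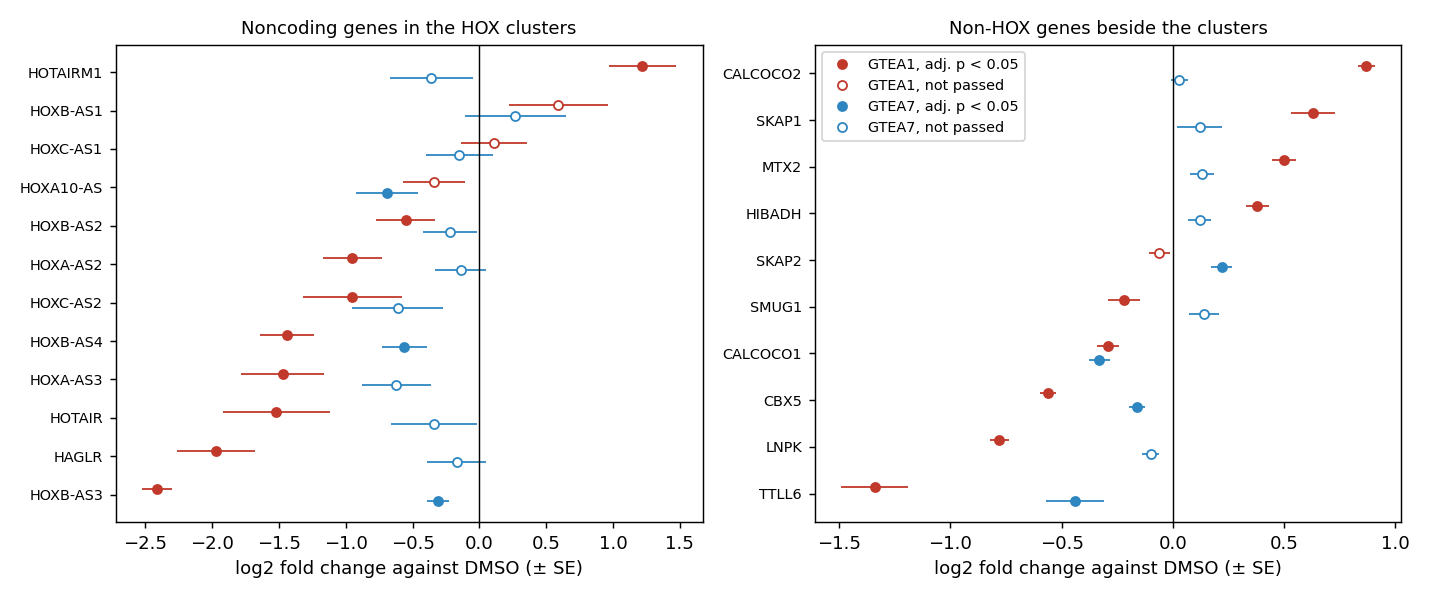
Log2 fold change against DMSO (points, with SE bars) of the 12 tested noncoding genes inside the HOX clusters (left) and the 10 tested non-HOX genes beside them (right), for GTEA1 (red) and GTEA7 (blue); filled points passed. HOXB-AS3 is lowest at -2.41 in GTEA1 and HOTAIRM1 highest at 1.22, and the flanking genes range from -1.34 (TTLL6) to 0.87 (CALCOCO2).

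ParaHox genes are the sister group of the HOX genes, and CDX2, an intestinal identity factor, binds HOX clusters directly. Of 8 ParaHox and EVX genes only CDX2 and PDX1 had enough counts, and both fell in GTEA1. CDX2 had 7.96, 7.85, 7.38 and 8.08 CPM in GTEA1 libraries, 11.2, 12, 11.3 and 11.4 CPM in GTEA7 libraries and 11.4, 12.2 and 11.1 CPM in DMSO libraries, with no overlap between GTEA1 and the rest, at -0.57 ± 0.094 (edgeR adjusted p = 5.8e-07). PDX1, a pancreas and duodenum factor, had 0.842, 0.513, 1.11 and 0.577 CPM in GTEA1 libraries, against 2.4, 2.21 and 2.2 CPM in DMSO libraries, at -1.56 ± 0.25 (edgeR adjusted p = 2.3e-07). Neither passed in GTEA7, at -0.01 and -0.19. CDX1 had 0 counts.

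Among the TALE cofactors, which bind DNA with HOX proteins, 4 of 7 tested genes passed as lower and 2 as higher in GTEA1, with a median of -0.18. MEIS2 had 6.13, 6.31, 7.65 and 5.45 CPM in GTEA1 libraries, 16.5, 14.8, 15.7 and 14 CPM in GTEA7 libraries and 14.5, 15.1 and 12.1 CPM in DMSO libraries. It was lower in all 4 GTEA1 libraries, at -1.13 ± 0.1 (edgeR adjusted p = 9.6e-14). PBX3 was also lower at -0.73 ± 0.11 and, slightly, MEIS3 at -0.18 ± 0.056. PBX4 (0.54 ± 0.12) and PBX2 (0.35 ± 0.066) were higher, and PKNOX1 did not pass (0.11 ± 0.065, edgeR adjusted p = 0.12) except without GTEA1 replicate 2 (0.047). MEIS1 had 2 counts in all. In GTEA7 MEIS3 alone of the 7 passed, at -0.37 ± 0.055 (edgeR adjusted p = 1e-06). That is 14.3%, beside 22.5% of all tested genes.

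Polycomb repressive complex 2 places the silencing mark on HOX clusters. In GTEA1, 4 of its 11 tested genes passed as higher and 5 as lower, with a median of -0.01. JARID2, an accessory subunit, had 132, 142, 147 and 148 CPM in GTEA1 libraries, against 58.2, 56.6 and 55.9 CPM in DMSO libraries, at 1.32 ± 0.044 (edgeR adjusted p = 2.9e-31). PHF1 (1.03 ± 0.071), the enzyme EZH1 (0.83 ± 0.049) and, slightly, EED (0.15 ± 0.061) were also higher. The main enzyme EZH2 was lower at -0.51 ± 0.043 (edgeR adjusted p = 2.4e-15), as were RBBP4 (-0.70 ± 0.037), RBBP7 (-0.65 ± 0.04), SUZ12 (-0.15 ± 0.039) and AEBP2 (-0.10 ± 0.046). Calls were not stable for EED, lost without DMSO replicate 2 (0.14) or 3 (0.076) and at -0.01 with library size as the only scaling. EED was also lost with the DESeq2 Wald test (0.059) and in a fit of the compared groups only (0.052). AEBP2 was lost with DESeq2 size factors (0.055), without the low-count filter (0.14), with the DESeq2 Wald test (0.098), and without DMSO replicate 1 (0.071) or 3 (0.18) and without GTEA1 replicate 2 (0.14) or 3 (0.077). In GTEA7 1 of the 11 passed (9.09%, beside 22.5% of all tested genes). It was SUZ12 at 0.12 ± 0.038, which was lost without DMSO replicate 2 (0.11) and with scaling by library size only (0.17). AEBP2 also passed as higher in GTEA7 in a fit of the compared groups only (0.033), with DESeq2 size factors (0.034), with limma-voom (0.047) and without DMSO replicate 3 (0.041). EZH2 passed as lower in the fit of the compared groups only (0.032), with scaling by library size only (0.0039) and without GTEA7 replicate 1 (0.022), and RBBP7 as higher without GTEA7 replicate 4 (0.042).

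Polycomb repressive complex 1 reads that mark through CBX proteins. Of its 20 genes 10 passed as higher and 6 as lower in GTEA1, with a median of 0.16. These counts were 8 and 7 with scaling by library size only, and 11 and 6 with limma-voom. With library size only, PHC2 (0.99) and YAF2 (0.91) lost their calls as higher and BMI1 (2.9e-05) passed as lower. YAF2 was also lost in other runs, among them the DESeq2 Wald test (0.071) and those without DMSO replicate 1 (0.088), 2 (0.064) or 3 (0.076). CBX2 had 19.8, 17.4, 16.7 and 17.2 CPM in GTEA1 libraries, 42.3, 43.9, 46.7 and 43.9 CPM in GTEA7 libraries and 54, 58.2 and 57.7 CPM in DMSO libraries, lowest in GTEA1 and in between in GTEA7, at -1.68 ± 0.059 in GTEA1 (edgeR adjusted p = 3.2e-30) and -0.36 ± 0.05 in GTEA7 (edgeR adjusted p = 2.2e-07). PCGF1 was higher in GTEA1 (1.34 ± 0.075), and KDM2B, its partner, was lower (-0.64 ± 0.058). In GTEA7 50% of the 20 passed, beside 22.5% of all tested genes. There 4 passed as higher (PCGF6 0.22, RNF2 0.17, PCGF5 0.13 and PHC2 0.11) and 6 as lower. Of these, PCGF6 was lost without DMSO replicate 1 (0.077). PCGF5 was lost without DMSO replicate 2 (0.3) or 3 (0.18) and GTEA7 replicate 2 (0.079) or 4 (0.11). PHC2 was lost without DMSO replicate 1 (0.094), 2 (0.079) or 3 (0.074) and GTEA7 replicate 2 (0.086) or 4 (0.065). Scaling by library size only ended the calls of RNF2 (0.065), PCGF5 (0.22) and PHC2 (0.3), and a replicate block that of PCGF5 (0.085).

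**Figure D5:**
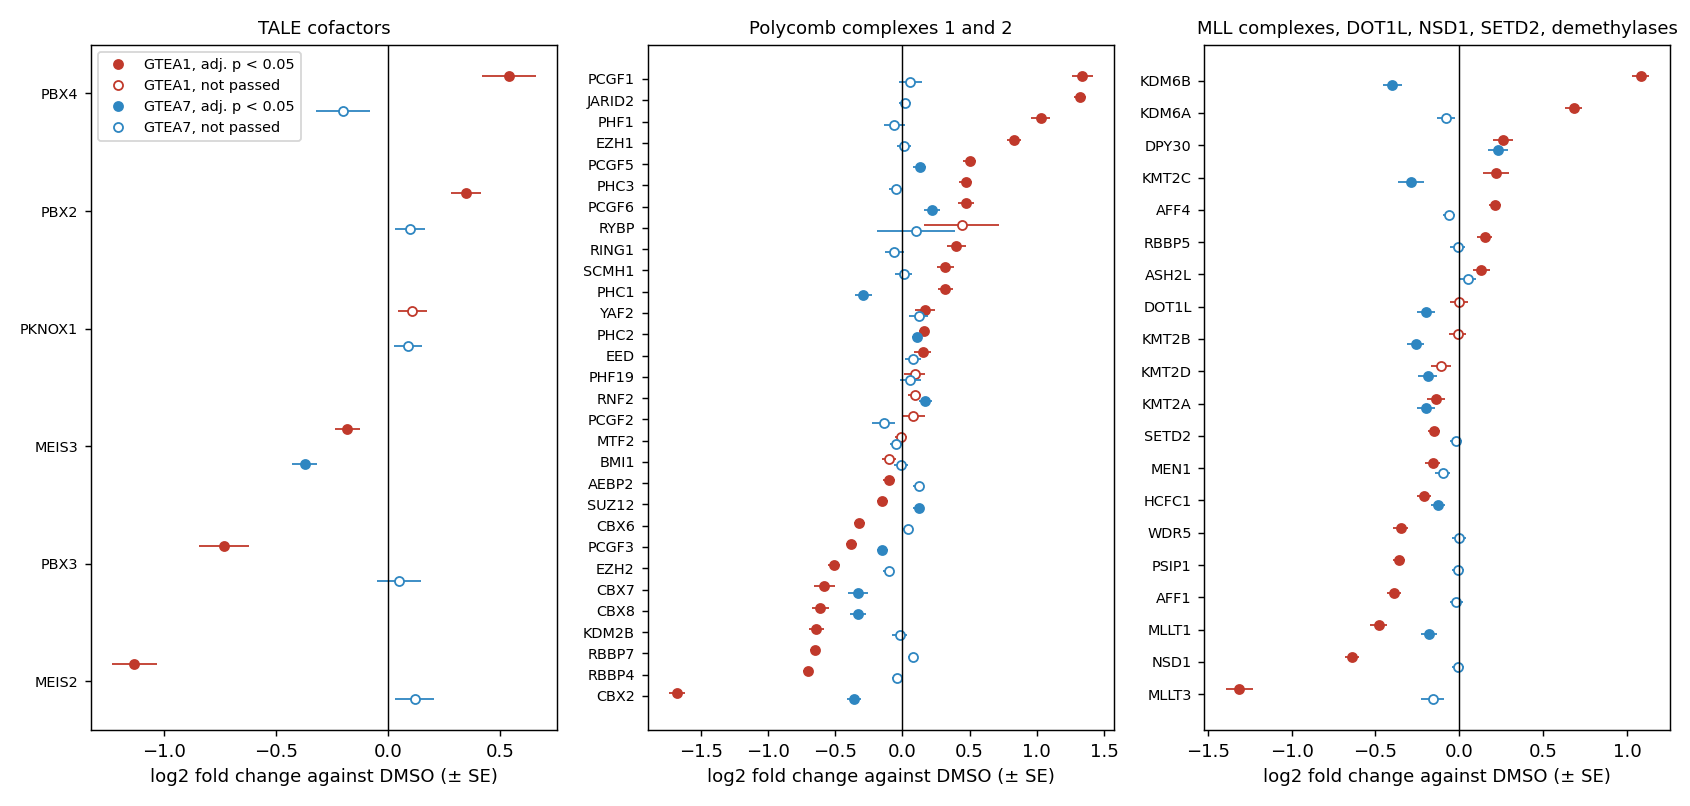
Log2 fold change against DMSO (points, with SE bars) of tested TALE cofactors, Polycomb genes and genes of MLL complexes, DOT1L, NSD1, SETD2 and demethylases, for GTEA1 (red) and GTEA7 (blue); filled points passed. Each list holds genes that rose and genes that fell in GTEA1, from CBX2 at -1.68 to PCGF1 at 1.34.

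Genes of the activating side passed in both directions. Of 20 genes of MLL (KMT2) complexes, DOT1L and its partners, the demethylases that remove the Polycomb mark and the histone methyltransferases NSD1 and SETD2, 7 passed as higher and 10 as lower in GTEA1, with a median of -0.12. With scaling by library size only this became 2 higher and 13 lower. KMT2C (0.46), DPY30 (0.16) and AFF4 (0.23) then lost their calls, and ASH2L (0.67) and RBBP5 (0.82) turned sign and did not pass. KMT2B (0.0048), KMT2D (0.00091) and DOT1L (0.0088) then passed as lower. Without DMSO replicate 1, 5 were higher and 9 lower, as KMT2C (0.066), ASH2L (0.12) and KMT2A (0.067) lost their calls. Without DMSO replicate 2 or GTEA1 replicate 3 the counts were 6 and 9, with KMT2C (0.058 and 0.054) and KMT2A (0.078 and 0.05) lost. KMT2C was also lost without DMSO replicate 3 (0.061) or GTEA1 replicate 4 (0.058). The demethylase KDM6B had 84.9, 96.7, 88.2 and 95.8 CPM in GTEA1 libraries, 33.3, 32.2, 30.3 and 36.1 CPM in GTEA7 libraries and 43.1, 41.9 and 45.2 CPM in DMSO libraries, highest in GTEA1 and lowest in GTEA7, at 1.08 ± 0.051 (edgeR adjusted p = 2e-24) and -0.40 ± 0.056 (edgeR adjusted p = 3.3e-07). KDM6A was higher in GTEA1 (0.68 ± 0.052). MLLT3, a DOT1L partner, had 9.57, 9.24, 8.43 and 8.98 CPM in GTEA1 libraries, against 24, 22.4 and 20.7 CPM in DMSO libraries, at -1.31 ± 0.083 (edgeR adjusted p = 1.1e-19), and NSD1 was lower at -0.64 ± 0.039. In GTEA7 45% of the 20 passed, beside 22.5% of all tested genes. There 1 passed as higher (DPY30, 0.23 ± 0.059) and 8 as lower, among them KMT2B (-0.26 ± 0.051). Only 3 were lower without DMSO replicate 3, when KMT2C (0.064), KMT2D (0.075), HCFC1 (0.1), DOT1L (0.075) and MLLT1 (0.055) lost their calls. Of these, KMT2C, KMT2D and HCFC1 were also lost without DMSO replicate 2 (0.075, 0.085 and 0.1) or GTEA7 replicate 3 (0.06, 0.063 and 0.093), which left 5.

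CTCF and cohesin, which fold the clusters into domains, had 5 of 8 genes lower and 1 higher in GTEA1, with a median of -0.21. The cohesin subunit SMC1A had 87.6, 86.8, 85.3 and 91.6 CPM in GTEA1 libraries, against 202, 212 and 214 CPM in DMSO libraries, at -1.25 ± 0.037 (edgeR adjusted p = 2.7e-33). RAD21 (-0.44 ± 0.033), CTCF (-0.28 ± 0.041), STAG1 (-0.28 ± 0.047) and SMC3 (-0.13 ± 0.038) were lower by less, and the loader NIPBL was higher at 0.16 ± 0.04, a change that was 0.00 with library size as the only scaling, when 7 of the 8 were lower and none higher. STAG2 passed as higher in GTEA1 without DMSO replicate 2 (0.021) or GTEA1 replicate 1 (0.028), and as lower with library size only (0.045). In GTEA7 1 of the 8 passed (12.5%, beside 22.5% of all tested genes), the release factor WAPL at 0.12 ± 0.038. WAPL was lost without DMSO replicate 2 (0.058) or 3 (0.13) and without GTEA7 replicate 3 (0.061). It was also lost with scaling by library size only (0.23), when SMC1A passed as lower (0.038). STAG2 passed as higher in GTEA7 without DMSO replicate 2 (0.043) or GTEA7 replicate 4 (0.044).

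Retinoic acid switches on anterior HOX genes. Of 14 retinoid genes 9 had enough counts, and in GTEA1 5 passed as higher and 2 as lower, with a median of 0.37. CRABP2, which carries retinoic acid to its receptors, had 70.4, 68.6, 69.7 and 57.4 CPM in GTEA1 libraries, 165, 170, 169 and 170 CPM in GTEA7 libraries and 201, 207 and 220 CPM in DMSO libraries, at -1.66 ± 0.046 in GTEA1 (edgeR adjusted p = 2.2e-29) and -0.31 ± 0.042 in GTEA7 (edgeR adjusted p = 3.7e-07). The receptors RARG (0.89 ± 0.049) and RARA (0.53 ± 0.072) were higher in GTEA1, as were RDH10, which makes retinal (0.42 ± 0.06), and DHRS3, which turns retinal back to retinol (0.56 ± 0.086), and RXRA was lower (-0.20 ± 0.047). In GTEA7 DHRS3 changed most, at 1.18 ± 0.079 (edgeR adjusted p = 6.5e-17), followed by CYP26B1, which breaks retinoic acid down (0.44 ± 0.056), and RDH10 (0.35 ± 0.059) as higher and CRABP2 and RXRA (-0.24 ± 0.047) as lower. The share of the 9 that passed in GTEA7 was 66.7%, beside 22.5% of all tested genes. RARB and CYP26A1, genes that retinoic acid raises in many cells, had 19 counts each over all 11 libraries.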

How the data were processed

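RNA from 11 HCT116 libraries was purified with poly-T beads and sequenced after random-hexamer priming (NEBNext Ultra kit, Illumina NovaSeq), per the labels' protocols. The authors deposited raw read counts per Ensembl gene in 1 table. The submitters' processing notes name STAR, HTSeq 0.5.4, DESeq 1.10.1, Picard, GATK and SAMtools 0.1.18, with no role stated. For genome build, annotation and strand, the setting was not given in the sources used here. Symbols were matched for 60370 of 61464 rows.

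Genes were filtered with filterByExpr, scaled by TMM and fitted in a single edgeR 4.0.16 quasi-likelihood model of all libraries (R 4.3.3), with 3 contrasts and Benjamini-Hochberg adjustment over 17963 genes. The method was run on simulated data with far fewer changed genes than here and the same spread for every gene. That run therefore does not show how the scaling behaves in these data. Alternatives were DESeq2 size factors, library size only, no filter, at least 1 CPM in 3 libraries, a replicate block, only the compared groups, limma-voom (3.58.1), the DESeq2 1.42.0 Wald test and leaving out each library. Exon lengths and overlaps came from GENCODE v29. Replicate pairs differed by more than counting noise (chi-square per degree of freedom 1.35 to 3.7), so none was taken as a duplicate. Named were the tested HOX genes; of other lists, up to 4 genes with the smallest adjusted p in GTEA1 and up to 2 in GTEA7, and all of a direction with 5 or fewer, and all tested noncoding genes. Members and lists were chosen with earlier results of these data known. HOXB7-AS1 was not matched and was not analysed here. A few genes and sequences that this rule would name are not reported here, in text or figures, though they remain in the counts and medians.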

Additional observations from a re-analysis of the deposited data

Results flagged for a closer look

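Within groups of 4 libraries, a single library stood apart by Dixon's test for 6 of 64 combinations of an extract group with a tested HOX gene or the sum of a cluster, where chance gives about 1 in 20. All 6 were single genes. In GTEA1 they were HOXB3 in replicate 2 (17.2 CPM, others 17.8 to 17.9), HOXB8 in replicate 1 (8.04, others 6.01 to 6.27) and HOXB13 in replicate 3 (5.68, others 6.31 to 6.43). HOXC8 (1.86 CPM, others 1.18 to 1.25) and HOXC10 (1.73, others 1.17 to 1.23) both stood out as high in GTEA1 replicate 4. In GTEA7 it was HOXB13 in replicate 1 (12.9 CPM, others 11.5 to 11.7).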

How the results depend on the processing

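No HOX gene that passed changed sign under any alternative run. Leaving out 1 library at a time gave 17 to 19 HOX genes lower and 3 to 3 higher in GTEA1 against DMSO, 3 to 5 lower and 0 to 0 higher in GTEA7 against DMSO, and 17 to 18 higher and 3 to 3 lower in GTEA7 against GTEA1. When only library size was used for scaling, the median of all genes shifted to -0.166 in GTEA1 against DMSO, -0.059 in GTEA7 against DMSO and 0.108 in GTEA7 against GTEA1. The HOX count lower in GTEA7 against DMSO was then 7 in place of 4, with HOXA9, HOXB5 and HOXB6 added, and HOXC4 (-0.48) and HOXC8 (-0.64) passed in GTEA1. The log2 ratios of the cluster sums were then -0.63 (HOXA), -0.84 (HOXB), -0.84 (HOXC) and 0.23 (HOXD) in GTEA1 against DMSO, -0.19 (HOXA) and -0.11 (HOXB) in GTEA7 against DMSO, and 0.44 (HOXA), 0.73 (HOXB) and 0.60 (HOXC) in GTEA7 against GTEA1. Over all tested genes that scaling gave 4836 higher and 8173 lower in GTEA1 against DMSO (6390 and 6505 with TMM), 1258 and 2949 in GTEA7 against DMSO (2159 and 1877), and 7651 and 5459 in GTEA7 against GTEA1 (6510 and 6546). Signs turned in GTEA1 against DMSO for EED (-0.01), ASH2L (-0.03), RBBP5 (-0.01), DOT1L (-0.16) and STAG2 (-0.09), by the construction of that scaling. The other alternatives moved no HOX count by over 1.5 times. HOXC8 passed in GTEA1 against DMSO at 1 CPM in 3 libraries (edgeR adjusted p = 0.046), with limma-voom (0.048) and with the replicate block (0.034).

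No pairing by replicate number was seen: 10 same-numbered pairs had correlations of -0.0569 to 0.0463. This cannot exclude that libraries with the same number shared a culture, which the labels do not state. With the replicate number as a block, 19 HOX genes were lower and 3 higher in GTEA1 against DMSO, 3 lower and 0 higher in GTEA7 against DMSO, and 17 higher and 3 lower in GTEA7 against GTEA1. Depth limits the 11 untested members and the genes under about 1 CPM.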
